A study of Mus musculus with 4 samples.

Results

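The metalloproteinases and their inhibitors described here are the matrix metalloproteinases (Mmp), the ADAM and ADAMTS proteases with the ADAMTS-like proteins, the tissue inhibitors Timp1 to Timp4, and Reck, in CT26 cells with and without iRhom1. Genes were chosen by symbol alone, whatever their level, with Adam17 left out, and 40 of the 21677 gene symbols of the expression table fell under this rule: 10 Mmp genes, 15 Adam genes, 12 Adamts and Adamts-like genes, and the inhibitors Timp2, Timp3 and Reck. The annotation of the genome holds 84 symbols of these families, and the 44 without a row in the table used here, such as Timp1, Timp4, Mmp14 and Adam19, were not analysed here. CT26 is a mouse colon carcinoma line, and bulk RNA was sequenced from 2 libraries of Control cells (tagged S17 and S19) and 2 libraries of iRhom1 KO cells (tagged S18 and S20). The knockout was made with a lentiviral CRISPR vector (LentiCRISPR) carrying a guide against Rhbdf1, the gene of iRhom1, and KO cells were selected by growing single clones. A line with the vector but no guide was made too, and the sources used here do not say whether it or unmodified CT26 served as the Control. The study kept CT26 cells in RPMI medium with serum and antibiotics, and the sources used here name no further treatment of the sequenced cells. Whether the 2 libraries of a genotype were grown as separate cultures is not stated, so the tests below measure the spread between libraries, which may be technical.

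Matrix metalloproteinases are zinc enzymes that are secreted or anchored in the membrane and that cut collagens, proteoglycans and other proteins outside the cell. ADAM proteases sit in the membrane and release the outer parts of other membrane proteins, a process called shedding, while ADAMTS proteases are secreted and act on procollagens and proteoglycans. TIMPs are small secreted proteins that block the active site of these enzymes, and Reck is a membrane-anchored glycoprotein that restrains several of them. IRhom1 is a rhomboid relative without protease activity that is known for escorting ADAM17, one such sheddase, through the secretory pathway.

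Levels are given as FPKM, the fragments of a gene scaled to transcript length and to the mapped fragments of the library, so they are per length and can be compared between genes. Log2 fold changes were taken as iRhom1 KO minus Control on log2(FPKM + 0.5), a scale that understates the change of low genes, and they were tested with limma over the 10271 genes whose mean reached 1 FPKM in 1 group or both. A gene was called at an adjusted p under 0.05 over all genes tested. Exchanging 2 libraries against 2 cannot give a p below 0.333, so no exchange test of a single member was made and each member's p comes from limma's fit across all genes. Rhbdf1 itself was listed at 0.538 and 0.890 FPKM in Control and 0.0940 and 0.0584 in iRhom1 KO, but the values equal those of the unrelated gene Apobec2 in 3 of the 4 libraries, so they were not taken as a check of the knockout. Estimated depth was 49700000 to 53500000 fragments per library. Across the table, 1096 genes were called higher and 2254 lower in iRhom1 KO, and with trimmed mean scaling between libraries the split was 1664 higher and 1700 lower. In bulk RNA, fewer cells of a type and less RNA per cell cannot be told apart.

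Timp2 and Adam9, the members with the highest levels, fell in iRhom1 KO, and the 3 next highest in Control, Adam15, Adam1a and Adam10, were not called. Timp2, the most abundant inhibitor transcript measured here, was at 0.514 of its Control level and the sheddase Adam9 at 0.647, and the matrix metalloproteinase Mmp19 and the matrix protein Adamtsl5 were also lower. The procollagen protease Adamts14, the inhibitor Reck, the stromelysin Mmp3 and the proteoglycanase Adamts1 were higher. Of the 40 members, 13 reached the level for testing, and 4 of these were called higher, 4 lower, and 5 were not called. The 8 called make up 61.5% of the tested members, against a background of 32.6% of all genes tested, and those called higher and lower make up 30.8% each, against 10.7% of all genes called higher and 21.9% called lower. Adamts14 and Reck passed the level for testing through their level in iRhom1 KO alone and so had to differ. Among the 11 members with at least 1 FPKM in both groups, 2 were called higher and 4 lower, against a background of 31.5% called in either direction among such genes. The median log2 fold change was -0.08 over the 13 tested members and -0.10 over all genes tested, and the median size of the change, whatever its sign, was 0.62 and 0.25. The 13 include Adamts14 and Reck, which had to differ, and no median size was taken for the 11 alone.

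The summed FPKM of the 40 members was 182.2 in S17, 182.9 in S19, 126.3 in S18 and 119.6 in S20. Timp2 made up 47.9% and 47.2% of this sum in the Control libraries and 35.7% and 36.9% in the iRhom1 KO libraries. Adam9 made up between 23.3% and 24.6% of it in each of the 4 libraries. The summed FPKM of these 40 members was thus mostly that of 1 inhibitor and 1 sheddase, with a joint share of 72.0% in S17 and 58.9% in S18. Adam17 and the family genes without a row, such as Timp1 and Mmp14, are not in this sum. For each of the 13 tested members the values of one group lay wholly above those of the other, in 5 members with iRhom1 KO above and in 8 with it below, and the same was so for 72.0% of all genes tested.

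**Figure D1:**
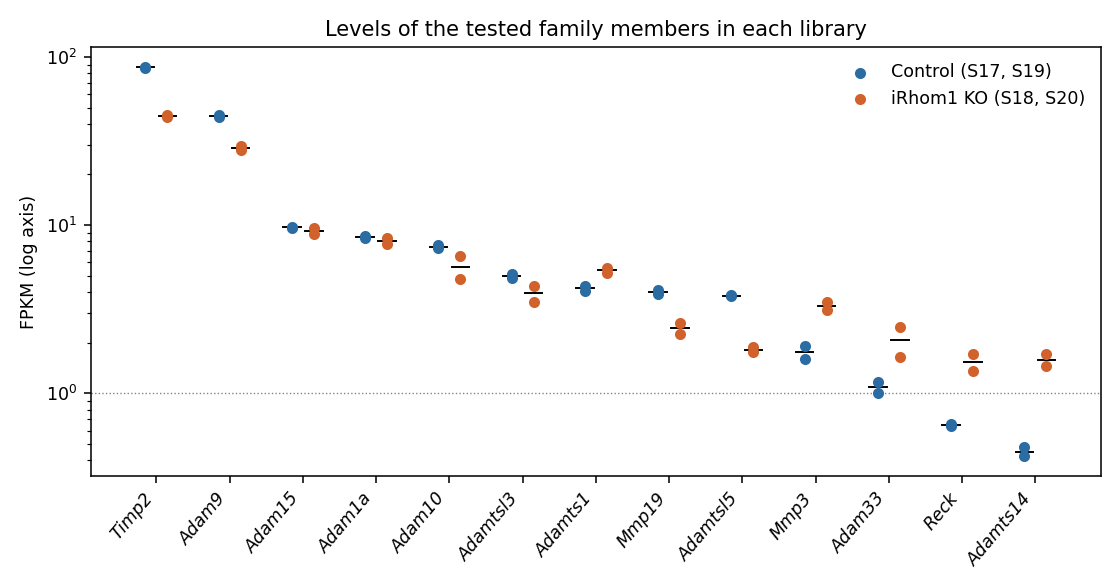
FPKM of the 13 tested members (log axis) in the 2 Control libraries (blue) and the 2 iRhom1 KO libraries (orange), with a short line at each group's mean and a dotted line at 1 FPKM, ordered by the Control mean. Timp2 and Adam9 stand far above the other members in every library, and only Reck and Adamts14 lie below 1 FPKM in Control.

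**Figure D2:**
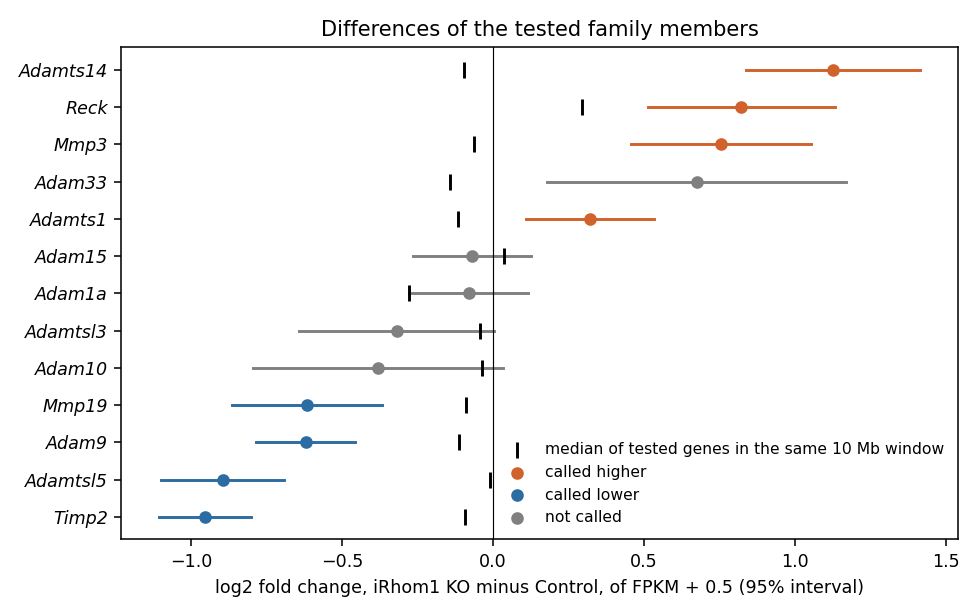
Log2 fold change (iRhom1 KO minus Control, on FPKM + 0.5) of each tested member with its 95% interval from limma, in orange where called higher, blue where called lower and grey where not called, and with a black tick at the median of the tested genes in the same 10 Mb of the chromosome. Called members run from -0.95 for Timp2 to 1.13 for Adamts14, and the ticks lie between -0.28 and 0.30.

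Timp2 encodes a secreted inhibitor that blocks most matrix metalloproteinases and also takes part in activating pro-MMP2 at the cell surface. Timp2 (ENSMUSG00000017466.9, chr11:118301069-118355740, minus strand, GRCm38) was at 87.3 FPKM in S17 and 86.3 in S19, and at 45.0 in S18 and 44.2 in S20. Both iRhom1 KO libraries were far below both Control libraries, and the libraries of each group lay close together. The mean went from 86.8 ± 0.661 to 44.6 ± 0.601 FPKM (SD, n = 2 libraries in each group), a ratio of 0.514, and the log2 fold change was -0.95 (standard error 0.0564, limma adjusted p = 0.00401, 95% interval -1.10 to -0.80). In Control cells Timp2 lay above 94.7% of the tested genes, and in iRhom1 KO cells still above 90.5%.

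Reck (ENSMUSG00000028476.13, chr4:43875530-43944806, plus strand), the membrane-anchored inhibitor, moved the other way. Its level was 0.653 FPKM in S17 and 0.639 in S19, and 1.70 in S18 and 1.36 in S20. Both iRhom1 KO libraries were higher, with more distance between them than between the Control libraries. Reck passed the level for testing through iRhom1 KO alone and so had to differ. The mean went from 0.646 ± 0.00934 to 1.53 ± 0.242 FPKM (SD, n = 2 each), with a log2 fold change of 0.82 (standard error 0.115, limma adjusted p = 0.0129). The 81 tested genes in the same 10 Mb of chromosome 4 had a median log2 fold change of 0.30, the highest such median beside any tested member. Timp3, an inhibitor that binds to the extracellular matrix, was too low for a test, at 0.0165 to 0.0172 FPKM in S17, S19 and S18 and 0.0564 in S20, or about 7 fragments in the first 3 libraries and 23 in the last.

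Promoter sequences of 26 of the 40 members were taken from RefSeq (GRCm38.p6, 250 bases before the transcript start and 50 after it). Adam3, Adam4, Adam9, Adam11, Adam12, Adam32, Adam33, Adamts4, Adamts6, Adamts7, Adamts10, Mmp2, Mmp9 and Mmp19 were not matched. The windows of the 2 called inhibitors are shown first, because these inhibitors moved in opposite directions. The AP-1 motif TGANTCA, which reads the same on both strands and would stand in capitals, was not found in either window. Timp2 lies at chr11:118355362-118355661 on the minus strand and Reck at chr4:43875280-43875579 on the plus strand, each written 5′ to 3′.
Timp2: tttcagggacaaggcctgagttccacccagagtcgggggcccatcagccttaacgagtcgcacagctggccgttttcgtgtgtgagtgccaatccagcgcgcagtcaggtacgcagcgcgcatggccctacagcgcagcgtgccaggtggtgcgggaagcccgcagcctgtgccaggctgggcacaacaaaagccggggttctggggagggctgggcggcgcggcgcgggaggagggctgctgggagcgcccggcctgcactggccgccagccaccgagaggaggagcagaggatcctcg
Reck: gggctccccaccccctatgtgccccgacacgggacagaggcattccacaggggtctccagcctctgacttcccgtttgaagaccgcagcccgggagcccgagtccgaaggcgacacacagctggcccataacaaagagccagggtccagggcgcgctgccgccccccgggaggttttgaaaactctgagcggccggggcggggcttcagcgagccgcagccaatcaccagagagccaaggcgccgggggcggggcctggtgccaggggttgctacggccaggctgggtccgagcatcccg
Both windows are rich in G and C, at 68.7% for Timp2 and 69.3% for Reck, where the median of all windows was 52.7%. The window of Adamts14 had 76.7%, that of Adamtsl5 72.0% and that of Adamts1 64.7%. Some tested members that were not called had GC-rich windows too, at 78.7% for Adamtsl3, 73.3% for Adam10 and 65.3% for Adam15. Adam1a, also not called, had a window with 39.7%. The ETS core GGAA, searched on both strands, was in 25 of the 27 member windows (92.6%, Mmp23 has 2 windows) and in 96.0% of the 32851 windows of all genes, so its presence sets no member apart.

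Among the 10 Mmp genes only Mmp3 and Mmp19 reached the level for testing, and they moved in opposite directions. Mmp3 (ENSMUSG00000043613.8, chr9:7445822-7455975, plus strand) encodes stromelysin 1, a secreted protease of broad range that cuts proteoglycans and fibronectin and activates other pro-MMPs. It was at 1.92 FPKM in S17 and 1.59 in S19, and at 3.48 in S18 and 3.11 in S20. Every iRhom1 KO value lay above every Control value. Its mean went from 1.75 ± 0.232 to 3.29 ± 0.257 FPKM (SD, n = 2 each), a ratio of 1.88, with a log2 fold change of 0.75 (standard error 0.111, limma adjusted p = 0.0144). The call rested on both iRhom1 KO libraries, since the limma adjusted p was 0.0608 without S18 and 0.0560 without S20.

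Mmp10 and Mmp13 lie in the same cluster of chromosome 9 as Mmp3. Mmp10, or stromelysin 2, was at 0.384 and 0.497 FPKM in the Control libraries and 0.454 and 0.339 in the iRhom1 KO libraries. Mmp13, a collagenase, was at 0.350 and 0.434 FPKM and at 0.559 and 0.342. The groups of both overlapped, and neither gene reached the level for testing, and a difference between Mmp3 and these neighbours was not tested. The promoters of these 3 genes are shown because each holds the AP-1 motif, in capitals, close to the start. The stretches run from 80 bases before the RefSeq transcript start to 20 after it, 5′ to 3′ on the plus strand of GRCm38.p6, at chr9:7445742-7445841 for Mmp3, chr9:7502262-7502361 for Mmp10 and chr9:7272434-7272533 for Mmp13.
Mmp3: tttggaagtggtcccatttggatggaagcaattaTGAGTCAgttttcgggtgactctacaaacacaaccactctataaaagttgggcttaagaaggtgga
Mmp10: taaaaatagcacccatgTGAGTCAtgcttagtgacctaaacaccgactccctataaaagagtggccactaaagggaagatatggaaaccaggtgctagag
Mmp13: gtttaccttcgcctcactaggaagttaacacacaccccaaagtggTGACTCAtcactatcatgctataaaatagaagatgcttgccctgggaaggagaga
The motif began 46 bases before the start in Mmp3, 63 in Mmp10 and 35 in Mmp13. It was present in 4 of the 27 member windows (14.8%), the last being Adam1b with the motif 20 bases after the start, and in 7.81% of all windows. Of the 6 called members with a window, Mmp3 was the only one that held it. These windows are also poorer in G and C, at 40.0% for Mmp3, 37.7% for Mmp10 and 43.7% for Mmp13. A match of letters is a description of the window and not a measured site, and the motif stood beside a called rise in 1 gene and beside overlapping groups in the other two.

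Mmp19 (ENSMUSG00000025355.7, chr10:128790910-128800824, plus strand), a secreted protease of basement membrane proteins, was at 3.89 and 4.09 FPKM in Control and at 2.61 and 2.26 in iRhom1 KO. Both iRhom1 KO values were lower. The mean fell from 3.99 ± 0.14 to 2.43 ± 0.248 FPKM (SD, n = 2 each), with a log2 fold change of -0.62 (standard error 0.0925, limma adjusted p = 0.0150). Its exons share 789 bases with Tmem198b and 212 bases with the antisense gene Gm47093, both on the other strand, and with the strand of the library not given, reads of these genes cannot be told apart there. Gm47093 had a log2 fold change of 0.47 (limma adjusted p = 0.0982).

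The gelatinases Mmp2 and Mmp9, which cut denatured collagen and collagen IV, stayed far under the level for testing. Mmp2 was listed at 0 FPKM in S17 and at 0.0429 in S19, and at 0.169 in S18 and 0.189 in S20, which is about 0, 7, 28 and 32 fragments. Mmp9 was at 0.0155, 0, 0.0705 and 0.0835 FPKM in the same order, about 3, 0, 12 and 15 fragments. Both iRhom1 KO libraries lay above both Control libraries for each gelatinase, at levels that stayed below those of Mmp10 and Mmp13. In a fit of all 21677 genes with no filter, Mmp2 had a log2 fold change of 0.38 (standard error 0.0588, limma adjusted p = 0.0340) and Mmp9 one of 0.18 (limma adjusted p = 0.0556). Mmp28, or epilysin, was at 0.347 and 0.484 FPKM in Control and 0.275 and 0.393 in iRhom1 KO, with groups that overlapped. The membrane-type genes Mmp15 and Mmp24 stayed below 0.1 FPKM in every library.

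Adam9 was the highest protease transcript among the members and the only Adam gene called. Its product is a membrane protease that cuts adhesion and signalling proteins at the cell surface. Adam9 (ENSMUSG00000031555.15, chr8:24949611-25016927, minus strand) was at 43.9 FPKM in S17 and 45.0 in S19, and at 29.4 in S18 and 28.1 in S20. The groups lay far apart relative to the spread within each. The mean went from 44.5 ± 0.74 to 28.8 ± 0.918 FPKM (SD, n = 2 each), a ratio of 0.647, with a log2 fold change of -0.62 (standard error 0.0612, limma adjusted p = 0.00760, 95% interval -0.78 to -0.46).

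Adam10 (chr9:70678997-70780229, plus strand), the sheddase that opens Notch and cadherins to further cleavage, was at 7.31 and 7.59 FPKM in Control and 6.55 and 4.79 in iRhom1 KO. All iRhom1 KO values were lower, but S18 and S20 differed from each other by more than S18 differed from Control. The log2 fold change was -0.38 with a 95% interval of -0.80 to 0.03, and Adam10 was not called (standard error 0.154, limma adjusted p = 0.127). Without S18 it was -0.59, with a limma adjusted p of 0.0384, and without S20 it was -0.17, with a limma adjusted p of 0.157, so the value depended on both iRhom1 KO libraries.

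Adam15, a disintegrin that also binds integrins, was at 9.63 and 9.73 FPKM in Control and 9.61 and 8.82 in iRhom1 KO. The value of S18 lay just under both Control values, and the log2 fold change of -0.07 (95% interval -0.26 to 0.13, limma adjusted p = 0.499) changed sign to 0.025 with trimmed mean scaling and to 0.032 with quantile normalization. Its exons share 1263 bases with the antisense gene 4731419I09Rik, which was at 0.0356 to 0.642 FPKM. Adam1a, a gene of sperm membrane proteins, was at 8.42 and 8.66 FPKM in Control and 8.39 and 7.72 in iRhom1 KO. Its level is uncertain, since its exons share 4779 bases with Gm42878 and 1805 bases with Mapkapk5 on the same strand. The log2 fold change of Adam1a was -0.08 (95% interval -0.28 to 0.12, limma adjusted p = 0.435), above the median of -0.28 for the 81 tested genes in the same 10 Mb of chromosome 5, and it changed sign to 0.013 with trimmed mean scaling, 0.024 with quantile normalization and 0.14 after centring each chromosome.

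Adam33 (chr2:131050591-131063814, minus strand), a protease best known from mesenchymal cells of the airway, was at 1.01 and 1.16 FPKM in Control and 2.48 and 1.64 in iRhom1 KO. Both iRhom1 KO libraries were higher, and S18 stood well above S20. The mean went from 1.08 ± 0.105 to 2.06 ± 0.594 FPKM (SD, n = 2 each), and the log2 fold change of 0.67 was not called (standard error 0.184, limma adjusted p = 0.0546, 95% interval 0.18 to 1.17). It passed the threshold with trimmed mean scaling (limma adjusted p = 0.0360), with quantile normalization (0.0309), after centring each chromosome (0.0381) and without S20 (0.0451). Adam8, a sheddase of leukocytes and tumour cells, was at 0.355 and 0.301 FPKM in Control and 0.198 and 0.302 in iRhom1 KO, with groups that overlapped. Adam22, an adhesion protein without protease activity, was at 0.410 and 0.297 FPKM in Control and 0.272 and 0.253 in iRhom1 KO, and both were under the level for testing.

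Adamts14 showed the largest called rise among the members. It encodes a protease that removes the amino-terminal propeptide of fibrillar procollagens. Adamts14 (ENSMUSG00000059901.12, chr10:61197112-61273438, minus strand) was at 0.422 FPKM in S17 and 0.478 in S19, and at 1.71 in S18 and 1.44 in S20. All Control values lay under 1 FPKM and all iRhom1 KO values above it. Adamts14 thus passed the level for testing through iRhom1 KO alone and had to differ, which limits what its p and rank can show. On average Adamts14 went from 0.45 ± 0.0394 to 1.58 ± 0.188 FPKM (SD, n = 2 each), a ratio of 3.50, with a log2 fold change of 1.13 (standard error 0.107, limma adjusted p = 0.00698, 95% interval 0.84 to 1.41).

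Adamts1 (ENSMUSG00000022893.14, chr16:85793827-85803113, minus strand), a protease of aggrecan and versican, was at 4.34 and 4.06 FPKM in Control and 5.17 and 5.58 in iRhom1 KO. Each iRhom1 KO value was above each Control value. Its mean went from 4.2 ± 0.196 to 5.38 ± 0.285 FPKM (SD, n = 2 each), with a log2 fold change of 0.32 (standard error 0.0784, limma adjusted p = 0.0425). This call was lost when any 1 of the 4 libraries was left out, with limma adjusted p-values of 0.111 without S17, 0.194 without S19, 0.0647 without S18 and 0.110 without S20, and also with no filter on low genes (0.0814). Adamts4, another proteoglycanase, was at 0.255 to 0.289 FPKM in the 4 libraries with groups that overlapped.

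Adamtsl5 fell, and Adamtsl3 was not called. ADAMTS-like proteins share the accessory domains of ADAMTS proteases but lack the protease domain, and several bind fibrillin microfibrils. Adamtsl5 (ENSMUSG00000043822.18, chr10:80339110-80348412, minus strand) was at 3.79 and 3.83 FPKM in Control and 1.75 and 1.89 in iRhom1 KO. The Control libraries nearly coincided, and both iRhom1 KO libraries lay far below them. Its mean went from 3.81 ± 0.0231 to 1.82 ± 0.0976 FPKM (SD, n = 2 each), a ratio of 0.477, with a log2 fold change of -0.89 (standard error 0.0758, limma adjusted p = 0.00587, 95% interval -1.10 to -0.69). Adamtsl3 was at 5.12 and 4.85 FPKM in Control and 3.47 and 4.36 in iRhom1 KO, where the log2 fold change of -0.32 was not called (standard error 0.121, limma adjusted p = 0.110, 95% interval -0.64 to 0.00). Adamtsl4 stayed under the level for testing at 0.350 and 0.334 FPKM in Control and 0.538 and 0.420 in iRhom1 KO, both higher.

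The remaining 27 members were under the level for testing, and 14 of them stayed below 0.1 FPKM in every library. A mean above 0.3 FPKM in a group was found for 8 of the 27: Adamts10, Adamts6, Adamtsl4, Mmp13, Mmp10, Mmp28, Adam22 and Adam8. Adamts10, a protease of microfibrils, was the highest of them, at 0.711 and 0.866 FPKM in Control and 0.597 and 0.486 in iRhom1 KO, with both iRhom1 KO values lower. Adamts6, a relative of Adamts10, was at 0.537 to 0.633 FPKM in the 4 libraries, with groups that overlapped. The groups did not overlap in 13 of the 27, with iRhom1 KO higher in 9 and lower in 4, against a background of 42.2% of all genes under the level for testing, so this count stands near that background. Adamts7, a protease of cartilage matrix proteins, was among the 9, at 0.00596 and 0.0223 FPKM in Control and 0.148 and 0.110 in iRhom1 KO, or about 2, 7, 46 and 35 fragments. In the fit with no filter it had a log2 fold change of 0.29 (standard error 0.0494, limma adjusted p = 0.0418), and Adamts7 and Mmp2 were the only members of the 27 that passed there. Adam3, a gene of sperm fertility, was lower in both iRhom1 KO libraries, at 0.0839 and 0.0657 FPKM in Control and 0.0273 and 0 in iRhom1 KO.

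**Figure D3:**
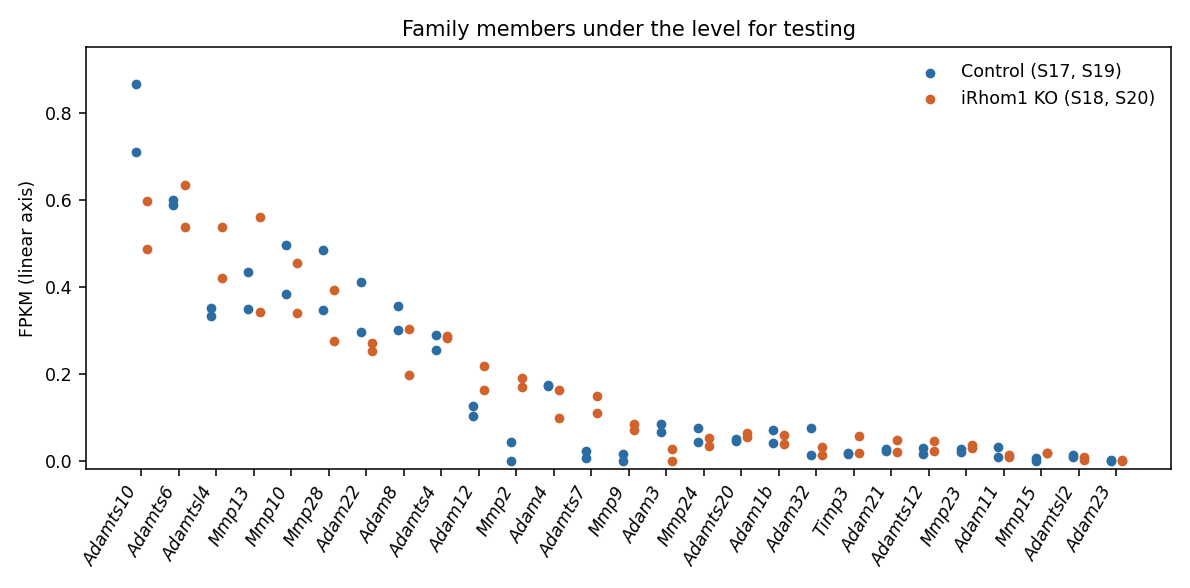
FPKM (linear axis) of the 27 members under the level for testing in the 2 Control libraries (blue) and the 2 iRhom1 KO libraries (orange), ordered by the higher group mean. Adamts10 is the highest at 0.486 to 0.866 FPKM, Mmp2, Mmp9 and Adamts7 lie near 0 in Control and higher in iRhom1 KO, and 14 members stay below 0.1 FPKM in every library.

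Chromosomes differed in their median change, at -0.37 for chromosome 13, -0.33 for chromosome 15, -0.38 for chromosome 17 and -0.23 for chromosome 5, with the other autosomes and X between -0.10 and -0.03. None of the 8 called members lies on those 4 chromosomes. The median of the tested genes in the same 10 Mb was -0.09 around Timp2, -0.11 around Adam9, -0.09 around Mmp19, -0.01 around Adamtsl5, -0.10 around Adamts14, -0.06 around Mmp3 and -0.12 around Adamts1. Around Reck it was 0.30, in the direction of Reck's own change of 0.82. After centring each chromosome 5 members were called higher and 4 lower.

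Proteins that process, carry or bind these enzymes were read from a list of 34 regulators and partners. Of these 24 had a row and 20 were tested, with 2 called higher, 5 lower and 13 not called, and a median log2 fold change of -0.10. Over all genes tested 10.7% were called higher and 21.9% lower, so the list stood near that background. Frmd8, a cytoplasmic partner that stabilises iRhoms and the sheddase they carry, was at 3.58 and 3.68 FPKM in Control and 2.09 and 2.33 in iRhom1 KO, a log2 fold change of -0.61 (standard error 0.0820, limma adjusted p = 0.0119). Rhbdf2, the gene of iRhom2, was at 1.47 and 1.42 FPKM in Control and 1.34 and 1.59 in iRhom1 KO, with a log2 fold change of 0.01 that was not called (limma adjusted p = 0.928). Furin, the convertase that removes the prodomain of many ADAM and membrane-type MMP proteins, was at 1.87 and 1.42 FPKM in Control and 1.13 and 0.991 in iRhom1 KO and was not called (log2 fold change -0.45, limma adjusted p = 0.0693). Tissue plasminogen activator, Plat, an activator of the plasmin cascade that in turn activates pro-MMPs, rose from 3.90 and 4.06 FPKM in Control to 5.76 and 6.46 in iRhom1 KO (log2 fold change 0.56, standard error 0.0849, limma adjusted p = 0.0153).

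Tetraspanins organise proteases in the plane of the membrane, and of the 6 tested 3 were called lower and 3 were not called, where 21.9% of all genes tested were called lower. Those not called were Tspan14, Tspan17 and Cd151, with log2 fold changes of -0.14, 0.09 and 0.21 (limma adjusted p = 0.898, 0.697 and 0.0622). Tspan15, too low for a test, was at 0.00221 and 0 FPKM in Control and 0.0585 and 0.0408 in iRhom1 KO. Tspan33, also too low, went the other way, at 0.124 and 0.0834 FPKM in Control and 0.0119 and 0.0305 in iRhom1 KO. Cd63, which binds Timp1 at the cell surface, was at 47.9 and 48.6 FPKM in Control and 33.6 and 32.2 in iRhom1 KO (log2 fold change -0.55, limma adjusted p = 0.00880). Cd9 was at 97.0 and 88.0 FPKM in Control and 66.3 and 57.1 in iRhom1 KO (log2 fold change -0.58, limma adjusted p = 0.0210), a call that was lost without S20 (adjusted p = 0.0640). Tspan5, a partner of Adam10, was also called lower. It falls outside the rule for named genes, so its mention was chosen after its values were seen. Its level was 6.94 and 6.92 FPKM in Control and 4.97 and 3.38 in iRhom1 KO, with S18 and S20 well apart. The log2 fold change of Tspan5 was -0.69 (standard error 0.179), and its limma adjusted p of 0.0485 lay just under the threshold. Tgm2, a transglutaminase that crosslinks matrix proteins, fell with a log2 fold change of -0.51 (limma adjusted p = 0.0133). Thbs2, a matrix protein that clears MMP2 through Lrp1, was called higher at 0.35 (limma adjusted p = 0.0363), a call lost without any 1 library, with limma adjusted p-values of 0.0616 to 0.164, and with no filter (0.0644).

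Among 40 known shed substrates, 35 had a row and 25 were tested, with 6 called higher, 3 lower and 16 not called, and a median log2 fold change of 0.11, against 32.6% called in either direction, 10.7% higher and 21.9% lower, over all genes tested. Shedding acts on the protein, and these values are of the transcripts only. Cx3cl1, a membrane-bound chemokine released by ADAM proteases, was at 0.00473 and 0.00735 FPKM in Control and 1.25 and 1.61 in iRhom1 KO (log2 fold change 1.92, limma adjusted p = 0.00482), and like Adamts14 and Reck it passed the filter through iRhom1 KO alone. Icam1, an adhesion receptor for leukocytes, went the other way, from 3.64 and 3.43 FPKM to 0.285 and 0.203 (log2 fold change -2.44, limma adjusted p = 0.00290). Icam1 passed the filter through Control alone and so had to differ. Sdc4, a heparan sulfate proteoglycan of the membrane, rose from 31.6 and 32.4 to 55.0 and 52.9 FPKM (log2 fold change 0.75, limma adjusted p = 0.00563).

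Vcam1, an adhesion receptor for leukocytes, also rose, with a log2 fold change of 0.72 (limma adjusted p = 0.00620). Cdh2, or N-cadherin, fell with -0.64 (limma adjusted p = 0.00844). The TNF receptor Tnfrsf1a was called lower at -0.36 (limma adjusted p = 0.0189), and this call was lost with quantile normalization (0.0616) and without S17, S19 or S20 (adjusted p of 0.101, 0.0886 and 0.0521). The ligands of the EGF receptor that were tested had log2 fold changes of 0.22 for Hbegf, 0.31 for Areg, 0.23 for Ereg and 0.42 for Btc, and none was called (limma adjusted p = 0.133, 0.0773, 0.0903 and 0.0663). Cd44, the hyaluronan receptor that metalloproteinases cleave near the membrane, was at 31.1 and 26.8 FPKM in Control and 35.2 and 28.6 in iRhom1 KO, with groups that overlapped (log2 fold change 0.13, standard error 0.136, limma adjusted p = 0.488).

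Of 19 metalloproteinases listed from outside these families, 8 had a row and 4 were tested with limma, and 0 were called or had an unadjusted p under 0.05. With 4 genes and a background of 32.6% called, this count says little about the group. They were the endothelin-converting enzyme Ece1, the carboxypeptidases Cpe and Cpd, and the egg protease Astl, with log2 fold changes of 0.01, 0.00, -0.17 and -0.13 and limma adjusted p-values of 0.900, 0.979, 0.167 and 0.268.

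**Figure D4:**
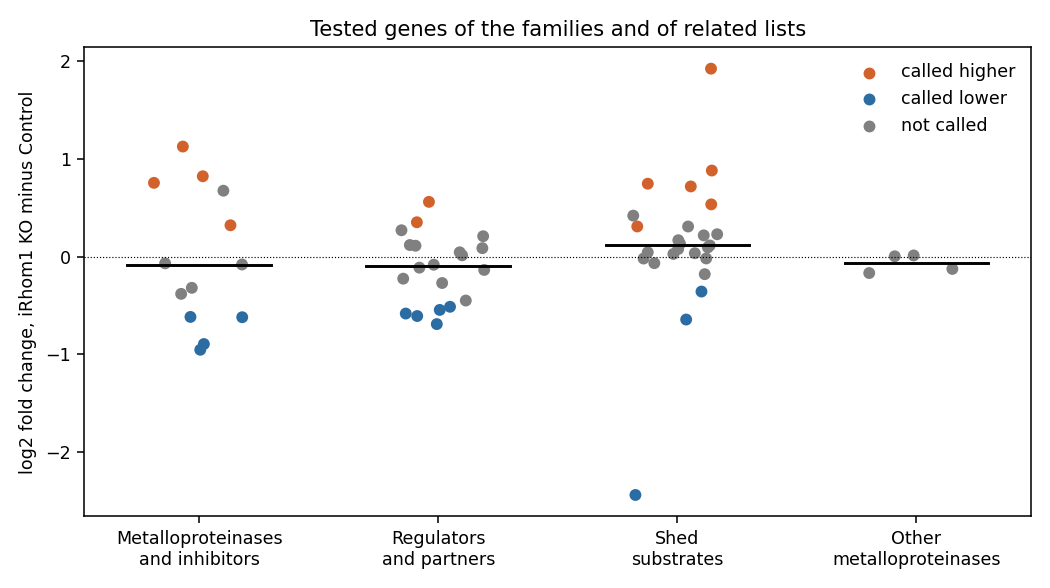
Log2 fold change (iRhom1 KO minus Control, on FPKM + 0.5) of the tested genes of the metalloproteinases and inhibitors (13 genes), the regulators and partners (20), the shed substrates (25) and the other metalloproteinases (4), in orange where called higher, blue where called lower and grey where not called, with a black line at each median. The medians lie at -0.08, -0.10, 0.11 and -0.06, and Cx3cl1 at 1.92 and Icam1 at -2.44 lie farthest from 0. Cx3cl1 passed the filter through iRhom1 KO alone and Icam1 through Control alone.

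Markers of the labelled cell type and of others were read beside these results. Of 10 epithelial markers 5 had a row, among them Krt18 at 8.58 and 9.39 FPKM in Control and 17.4 and 18.3 in iRhom1 KO, and Krt8 at 0.0278 and 0 in Control and 6.80 and 7.03 in iRhom1 KO. Krt18 and Krt8 were called higher (limma adjusted p = 0.00554 and 0.00154), and Krt20 was not called (limma adjusted p = 0.147). Krt8 passed the filter through iRhom1 KO alone and so had to differ. Cdx2, under the level for testing, was at 0.0290 and 0.0168 FPKM in Control and 0.243 and 0.270 in iRhom1 KO. Epcam and Cdh1, which define epithelium, have no row used here, and Vil1 was listed at 0 in S17 and S20. The summed FPKM of the fibroblast markers (6 of 9 with a row) was 61.2 to 65.4 in Control and 111.2 to 125.1 in iRhom1 KO. That of the leukocyte markers (4 of 9) was 5.21 to 5.38 in Control and 2.26 to 2.92 in iRhom1 KO, with Ptprc at 0.0063 FPKM or less in every library, and that of the endothelial markers (3 of 6) was 2.93 to 3.07 and 0.0490 to 0.0786, with Pecam1 at 0.00505 or less. Single markers of these lists were called lower, namely the lysosomal protein Cd68, at 3.36 FPKM in both Control libraries and 0.677 and 0.830 in iRhom1 KO (limma adjusted p = 0.00400), and Vwf, at 3.05 and 2.91 in Control and 0.0409 and 0.0678 in iRhom1 KO (limma adjusted p = 0.00264), which made up nearly all of the endothelial sum. Cd68 and Vwf passed the filter through Control alone and so had to differ. Lyz2, the other leukocyte marker tested, was at 1.82 and 2.02 FPKM in Control and 2.24 and 1.42 in iRhom1 KO. Its groups overlapped and it was not called (limma adjusted p = 0.777), so the lower leukocyte sum was mostly that of Cd68. Of the 4 fibroblast markers tested 3 were called higher, the collagen genes Col1a1, Col1a2 and Col3a1 (limma adjusted p = 0.0199, 0.0271 and 0.00422), and Dcn was not called. Pdgfra, under the level for testing, was lower in both iRhom1 KO libraries (1.05 and 0.916 FPKM against 0.761 and 0.723), and Thy1 was at 0.0265 FPKM or less in every library. The part of these marker differences in those of the members was not tested.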

How the data were processed

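RNA of CT26 cells was measured by bulk sequencing in 2 Control and 2 iRhom1 KO libraries. The authors aligned reads to GRCm38 with HISAT2 and made FPKM per gene with StringTie (versions and annotation not given in the sources used here). The deposited table also holds the authors' own fold and log2 columns, which compare the groups and were not used. Columns name the group and a library tag. Of 21724 rows, 19 that name no gene were dropped, and 54 rows of 26 repeated symbols were summed, which left 21677 symbols. Positions and exons came from GENCODE M21 (GRCm38) and covered 21066 symbols.

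Genes whose mean reached 1 FPKM in 1 group or both were fitted on log2(FPKM + 0.5) with limma 3.58.1 (trend, not robust) in R 4.3.3, with Benjamini-Hochberg adjustment at 0.05. The fit was also run on simulated data with independent noise for each gene, and no result here rests on that run. Alternatives were pseudocounts of 0.1 and 1, no filter, a filter of 5 FPKM, scaling by a trimmed mean (cutting 30% of the log ratios, 5% of the levels), quantile normalization, centring each chromosome, robust limma, a minimum fold of 1.5, the highest row of a symbol, and leaving out each library. Depth was estimated from the smallest steps between low FPKM, and the fragments given for single genes are approximate. Intervals are limma's 95% intervals. Promoters came from RefSeq (GRCm38.p6), a reference strain other than the one CT26 came from.

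The families, lists and tests were chosen with earlier results of these data known. Every tested member is named, members below the level for testing are named above 0.3 FPKM, and from each other list up to 4 called genes per direction with the smallest p. Others (Mmp2, Mmp9, Mmp15, Mmp24, Timp3, Adam3, Adamts4, Adamts7, Rhbdf2, Furin, Tspan5, the EGF receptor ligands, Cd44, and single marker genes) were named for their role or after their values were seen. The same holds for Tspan14, Tspan15, Tspan17, Tspan33, Cd151, Ece1, Cpe, Cpd and Astl.  A called gene of the shed substrates that this rule would name is not reported here.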

Additional observations from a re-analysis of the deposited data

How the results depend on the processing

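The 4 members called higher and 4 called lower were counted again under each alternative. With a filter of 5 FPKM 1 member was called higher and 2 lower, because fewer members were tested. Against a minimum fold of 1.5 no member was called in either direction by limma's treat, 144 genes were called across the table and 2 in the other lists, and Timp2 came nearest with an adjusted p of 0.0625. Without 1 library, where the lone sample of a group is assumed to vary like the others, 2 to 3 members were called higher and 4 to 5 lower, and 1657 to 2290 genes across the table. In the other lists 16 genes were called, 12 to 14 without 1 library, 22 with trimmed mean scaling, 21 with quantile normalization and 22 with chromosome centring. Timp2 and Adam9 passed in 14 of 15 settings with log2 fold changes of -0.97 to -0.85 and -0.65 to -0.50. The sign turned for Adam15 with trimmed mean scaling (0.025) and quantile normalization (0.032), and for Adam1a with trimmed mean scaling (0.013), quantile normalization (0.024) and chromosome centring (0.14). Neither was called in any setting, and the cause was not tested. The share of called genes that were higher was 32.7% and became 49.5% with trimmed mean scaling, 50.8% with quantile normalization and 52.2% with chromosome centring, where 5 members were called higher and 4 lower. No paired analysis was possible because the value columns carry library tags and no replicate numbers. FPKM without counts limit what can be said of members near 0, and with KO cells selected as single clones, clone and knockout cannot be told apart.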
